A study of Mus musculus with 25 samples.

Results

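Bone marrow neutrophils labelled as Ptpn6-deleted were compared between mice without Ripk3 and mice without Mlkl. The members were chosen by genotype alone, as the library titles give it. They were 3 libraries of Ripk3-/- Ptpn6deltaPMN mice and 2 libraries of Mlkl-/- Ptpn6deltaPMN mice, 5 of the 25 libraries of the series. All mice were female, of the C57BL/6J strain, aged 6 to 13 weeks, and labelled as not inflamed. Ptpn6deltaPMN denotes deletion of Ptpn6 in neutrophils and is shared by both groups. By label the groups differ in which of Ripk3 and Mlkl was knocked out. The labels do not name the Cre driver of the deletion or the part of Ripk3 or Mlkl that was removed, and do not say whether a library came from 1 mouse or a pool. Where nothing shows that libraries came from separate animals, p-values measure the spread between libraries only. In the main fit that spread was pooled over 23 libraries of 9 groups, not taken from the 5 compared libraries alone. The same pair of knockouts with Ptpn6 intact, Ripk3-/- (3 libraries) and Mlkl-/- (3 libraries), served to follow the differences in libraries that the comparison did not use. A further library has a title that gives Ripk3-/- Mlkl-/- and a genotype label that gives Mlkl-/- Ptpn6deltaPMN, and was placed in no group. It held 2 Ripk3 and 13256 Ptpn6 counts. The 2 Mlkl-/- Ptpn6deltaPMN libraries held 54 and 88 Ripk3 and 3370 and 3766 Ptpn6 counts. The 2 Ripk3-/- Mlkl-/- libraries held 1 and 1 Ripk3 and 13577 and 12965 Ptpn6 counts, so its counts were near those of its title.

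Ripk3 is a kinase that phosphorylates Mlkl, and phosphorylated Mlkl oligomerises at the plasma membrane and lyses the cell, a form of death called necroptosis. Ripk3 also takes part in caspase-8 complexes and in cytokine production that do not require Mlkl, so cells without Ripk3 and cells without Mlkl lack necroptosis alike but not all functions of Ripk3. Ptpn6 (SHP-1) is a tyrosine phosphatase that is recruited by inhibitory receptors of myeloid cells and restrains signalling by Src family kinases. The comparison asks what separates loss of the kinase from loss of the effector in neutrophils labelled as Ptpn6-deleted.

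RNA of cells from the interface of 68% and 78% Percoll was sequenced as bulk messenger RNA in paired reads of 100 bases. The 5 libraries held 21919304 to 23187557 estimated counts each. Levels are given as CPM, counts per 1000000 of the scaled library size, and differences as log2 changes of Ripk3-/- against Mlkl-/- libraries, so that a negative value is lower without Ripk3. All 10 neutrophil markers were detected in all 5 libraries, and their summed level was 58960, 111600 and 80820 CPM in Ripk3-/- Ptpn6deltaPMN replicates 1, 2 and 3. In Mlkl-/- Ptpn6deltaPMN replicates 1 and 2 it was 134300 and 118200 CPM, above all 3 of the other group. Markers of other cells differed as well. The 15 B cell markers summed to 1763, 850.3 and 1168 CPM without Ripk3 and to 526.0 and 610.5 CPM without Mlkl, with no overlap, and none was at 0 in either group. The 16 T and NK cell markers summed to 116 to 168 CPM and to 77.1 to 83.3 CPM. The 10 monocyte markers summed to 848 to 1322 CPM and to 1454 to 1543 CPM. Most monocyte markers went against their sum, with 8 of 10 above a log2 change of 0 and 2 below (median 0.479), where 54.9% of all genes were above. The 11 basophil and mast cell markers summed to 1068 to 1791 CPM and to 2228 to 2334 CPM, with 7 members below 0 and 4 above (median -0.147). In bulk RNA, fewer cells of a type and less RNA per cell cannot be told apart, and the part of these marker levels in the differences below was not tested beyond a fit that includes the B cell marker level.

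**Figure D1:**
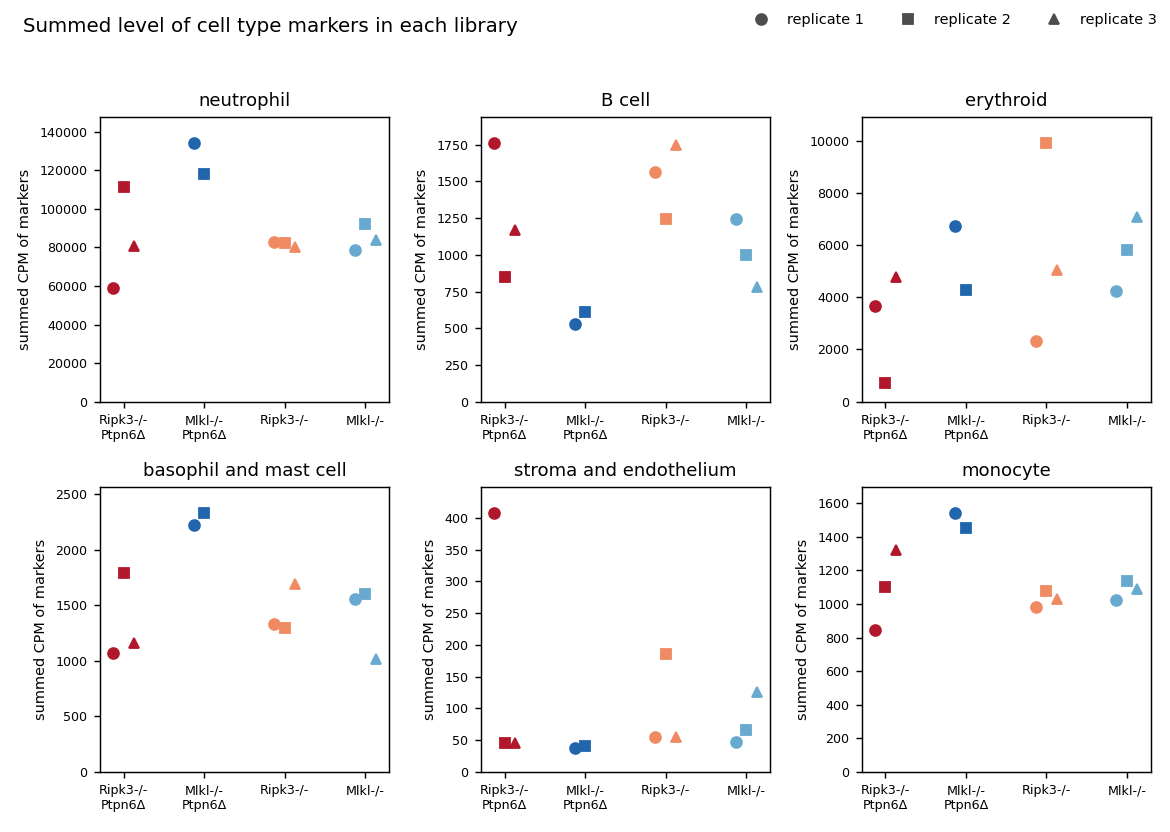
Summed CPM (vertical axes) of the marker genes of 6 cell types in each library of the 4 groups on the horizontal axes, 1 point per library, with the symbol giving the replicate number. The Mlkl-/- Ptpn6deltaPMN libraries are the highest for neutrophil markers (118200 and 134300 CPM) and the lowest for B cell markers (526.0 and 610.5 CPM), and Ripk3-/- Ptpn6deltaPMN replicate 1 stands apart for stroma and endothelium markers (408 CPM).

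The 3 Ripk3-/- Ptpn6deltaPMN libraries were not alike. Ptpn6 itself was at 295, 187 and 201 CPM in replicates 1, 2 and 3, against 182 and 193 CPM in the Mlkl-/- Ptpn6deltaPMN libraries and 490 to 707 CPM in the 6 libraries with Ptpn6 intact. Replicate 1 thus lay above the other 4 libraries of the comparison and below all 6 intact ones. It was not apart from all Ptpn6-deleted libraries of the series. Before scaling it held 7666 Ptpn6 counts, and Ripk3-/- Mlkl-/- Ptpn6deltaPMN replicates 1 to 3 held 6645, 7673 and 6350. Several genes, chosen after their values were seen, separated replicate 1 from replicates 2 and 3. Pmaip1, which encodes the cell death protein Noxa, was at 54.0, 5.27 and 2.78 CPM in replicates 1 to 3 and at 4.05 and 0.976 CPM without Mlkl, while the intact libraries held 26.5 to 56.5 CPM. Lipg, endothelial lipase, was at 4.05, 115 and 27.3 CPM without Ripk3 and at 66.97 and 282 CPM without Mlkl, while the intact libraries held 2.51 to 7.82 CPM. For these genes replicate 1 lay in the range of Ptpn6-intact libraries and replicates 2 and 3 lay outside it. Nos2, inducible nitric oxide synthase, was at 0.231, 8.73 and 1.27 CPM without Ripk3 and at 3.24 and 39.8 CPM without Mlkl. Ap1s1, an adaptor protein gene whose level moved with Ptpn6 deletion in an earlier reading of these data, was at 79.5, 109 and 65.4 CPM against 157 and 87.0 CPM, and at 8.33 to 12.4 CPM in the intact libraries, so that all 5 libraries, replicate 1 included, carried the higher level. Sh2b2, an adaptor that the same reading tied to the deletion, was at 6.68 to 9.48 CPM against 9.04 and 13.7 CPM, below the 24.2 to 38.8 CPM of the intact libraries. Ap1s1 and Sh2b2 were picked from these same data, so their levels are no independent check of the deletion in any of these libraries. Replicate 2 was in turn the nearest to the other group: across 16206 genes, the Pearson correlation of its log2 CPM was 0.980 with replicate 3 of its own group and 0.980 and 0.983 with the Mlkl-/- Ptpn6deltaPMN libraries. Values without replicate 1 or replicate 2 are given below beside the calls and lists that moved most.

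Ripk3 and Mlkl followed the labels. Ripk3 had 4, 1 and 2 counts in the Ripk3-/- Ptpn6deltaPMN libraries and 54 and 88 counts in the Mlkl-/- Ptpn6deltaPMN libraries, or 0.154, 0.0488 and 0.0818 CPM against 2.91 and 4.52 CPM. The groups did not overlap, and Ripk3 was the gene with the smallest p (log2 change -5.17, SE 0.50, edgeR quasi-likelihood test with Benjamini-Hochberg adjusted p = 5.54e-05). Mlkl was at 1.77, 2.05 and 3.56 CPM without Ripk3 and at 0.324 and 0.873 CPM without Mlkl. These groups did not overlap either, but the difference did not pass the test (log2 change 2.02, SE 0.48, adjusted p = 0.110), except without Ripk3-/- Ptpn6deltaPMN replicate 2 (log2 change 2.13, adjusted p = 0.0316). Reads from a part of Mlkl outside the deletion cannot be told apart from intact message here. Casp8, the protease that restrains necroptosis and is intact in all 5 libraries, was at 27.8, 28.05 and 26.95 CPM against 21.3 and 32.8 CPM, an overlap.

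Of 16206 genes tested, 3 were called at an adjusted p under 0.05 (0.0185%), and all 3 were lower without Ripk3: Ripk3, Sncaip and Ankrd46. This count rested on single libraries and on the tool. Without Ripk3-/- Ptpn6deltaPMN replicate 2, 1334 genes were called, 359 higher (2.22% of those tested) and 975 lower (6.03%). Without replicate 1 there was 1 call, without replicate 3 there were 2, and without Mlkl-/- Ptpn6deltaPMN replicates 1 and 2 there were 5 and 1. DESeq2 called 593 genes on all libraries, 149 higher (0.919%) and 444 lower (2.74%). Sncaip encodes synphilin-1, a protein that binds alpha-synuclein. It was at 0.308, 0.244 and 0.409 CPM without Ripk3 and at 3.83 and 7.71 CPM without Mlkl, with no overlap (log2 change -4.14, SE 0.54, edgeR adjusted p = 0.00294). Its adjusted p was 0.0513 without Ripk3-/- Ptpn6deltaPMN replicate 1 (log2 change -4.10) and 0.143 without Mlkl-/- Ptpn6deltaPMN replicate 2 (log2 change -3.55). With Ptpn6 intact the order was the other way at a low level, 0.385 to 0.533 CPM in Ripk3-/- and 0.141 to 0.335 CPM in Mlkl-/- libraries. Among the 20 libraries outside the comparison the highest Sncaip level was 3.65 CPM, in a library of a group in which Ripk3, Mlkl, Casp8 and Ptpn6 were all deleted, so a raised level was not limited to Mlkl-/- Ptpn6deltaPMN neutrophils.

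Ankrd46, which encodes an ankyrin repeat protein (GRCm38.p6, chromosome 15, 36477668 to 36496791), was the third called gene. It was at 8.55, 9.41 and 9.49 CPM without Ripk3 and at 56.9 and 48.0 CPM without Mlkl, far apart beside the spread within each group (log2 change -2.52, SE 0.41, edgeR adjusted p = 0.0410). The call was lost with the replicate number as a block (adjusted p = 0.0591), with the B cell marker level in the fit (0.343), without Ripk3-/- Ptpn6deltaPMN replicate 1 (0.185) or replicate 3 (0.223), and without Mlkl-/- Ptpn6deltaPMN replicate 1 (0.0918) or replicate 2 (0.178). The call was kept by DESeq2 (adjusted p = 6.23e-06). In edgeR fits it was kept with DESeq2's size factors (0.0345) and without the filter on low counts (0.00104). It was also kept in the edgeR fit of only the libraries compared (0.00136) and without Ripk3-/- Ptpn6deltaPMN replicate 2 (0.0274). The log2 change was -2.49 with the block, -2.05 with the B cell marker level and -2.64 to -2.39 with 1 library left out. Its level also differed between libraries of 1 genotype. In Ripk3-/- libraries with Ptpn6 intact it was at 26.9, 12.3 and 9.54 CPM, and in Mlkl-/- libraries at 28.1, 55.2 and 34.9 CPM. Over all 25 libraries the values fell into 3 separate ranges, 7.54 to 12.3 CPM in 7 libraries, 26.9 to 34.9 CPM in 11 and 48.0 to 63.7 CPM in 7. Libraries of the Ripk3-/-, Mlkl-/-, Ripk3-/- Mlkl-/- Ptpn6deltaPMN and Casp8deltaPMN Mlkl-/- Ptpn6deltaPMN groups fell into more than 1 of them.

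Rpl30 and Laptm4b, neighbours of Ankrd46 on chromosome 15, were divided over the same libraries. The window of 34000000 to 38000000, chosen after the values were seen, held 31 tested genes, of which 18 (58.1%) had an unadjusted p under 0.05, where 22.7% of all genes tested did. Only Ankrd46 was called among them. Rpl30, a protein of the large ribosomal subunit, was at 1.93, 1.17 and 1.15 CPM without Ripk3 and at 78.8 and 64.4 CPM without Mlkl (log2 change -5.64, adjusted p = 0.0787). It has processed copies elsewhere in the genome with which reads may be shared, so its level is uncertain. In the 7 libraries of the whole series where Ankrd46 was lowest, Rpl30 was at 1.15 to 2.98 CPM, and in the other 18 it was at 30.9 to 89.7 CPM. Laptm4b, a lysosomal membrane protein, went the other way, with 17.7, 28.1 and 18.7 CPM without Ripk3 and 1.40 and 1.03 CPM without Mlkl (log2 change 4.14, adjusted p = 0.110). In the Ripk3-/- libraries with Ptpn6 intact Rpl30 was at 38.9, 2.98 and 2.23 CPM and Laptm4b at 9.27, 24.2 and 24.6 CPM, so that replicate 1 differed from the other 2 in both genes. Rnf19a, an E3 ubiquitin ligase of the same window, was at 27.6, 33.1 and 33.25 CPM against 64.7 and 65.2 CPM, and Ncald, a neuronal calcium sensor, at 1.93, 0.829 and 0.900 CPM against 0.0540 and 0.0514 CPM. Ripk3, Mlkl and Ptpn6 lie on chromosomes 14, 8 and 6. Within 10 Mb of them, 26.3%, 24.5% and 25.5% of tested genes had an unadjusted p under 0.05, against 23.1% of all genes with coordinates, and Ripk3 was the only gene called there. The part of the chromosome 15 levels in the Ankrd46 call was not tested.

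**Figure D2:**
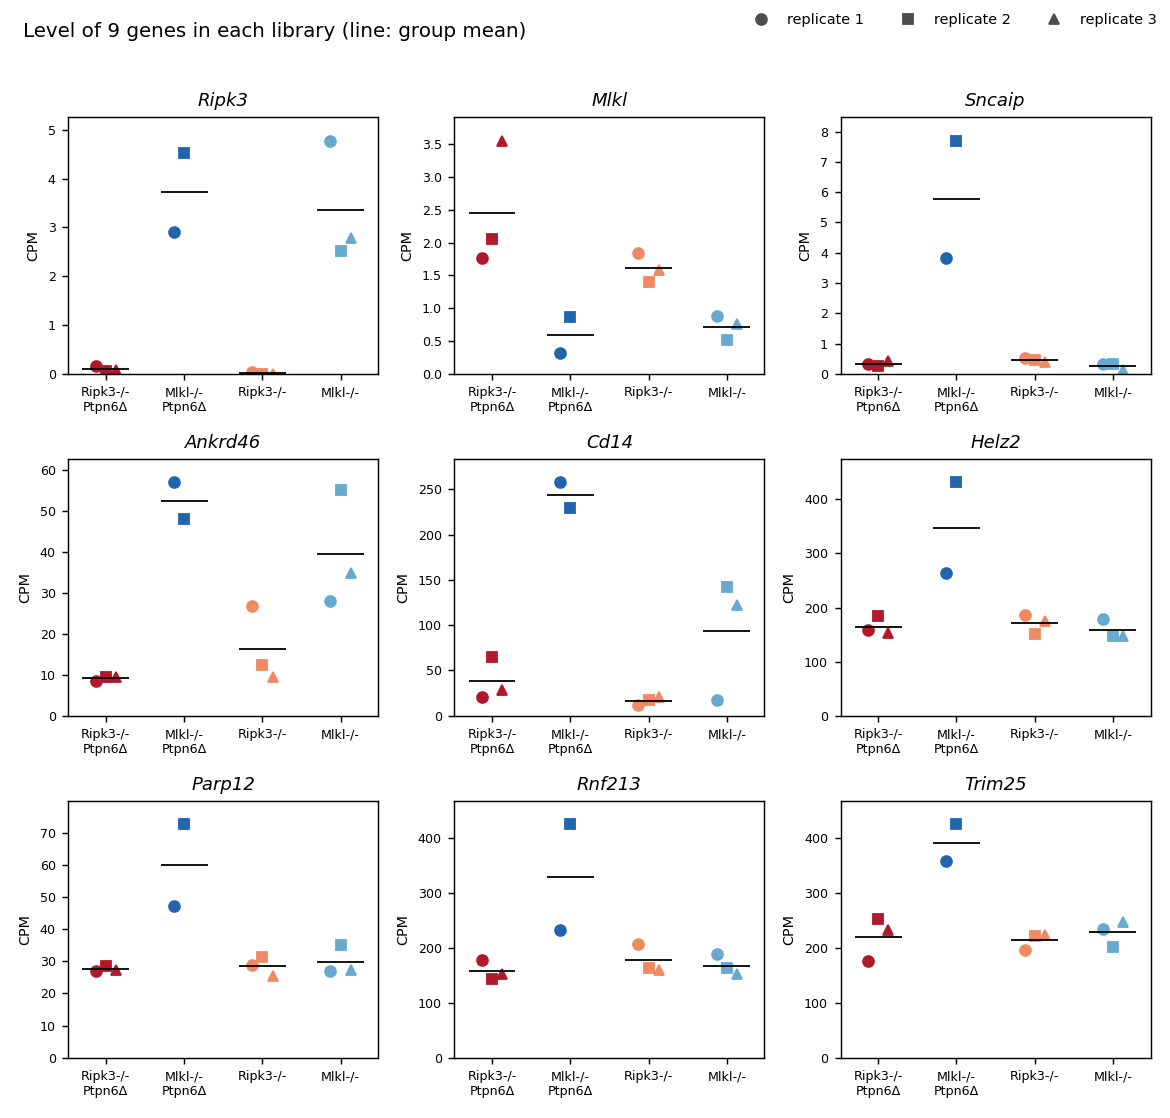
CPM (vertical axes, from 0) of 9 genes in each library of the 4 groups on the horizontal axes, 1 point per library, with a line at the group mean and the symbol giving the replicate number. Ankrd46 is at 8.55 to 9.49 CPM in Ripk3-/- Ptpn6deltaPMN and at 48.0 and 56.9 CPM in Mlkl-/- Ptpn6deltaPMN libraries and spread within the Ptpn6-intact groups, while Helz2, Parp12, Rnf213 and Trim25 are higher in both Mlkl-/- Ptpn6deltaPMN libraries than in any library of the other 3 groups plotted.

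Many more genes differed at an unadjusted p under 0.05: 1910 were higher (11.8% of those tested) and 1763 lower (10.9%) without Ripk3. The 5 libraries did not overlap for 6124 genes (37.8%), 3520 of them higher and 2604 lower. The 22 genes, predicted genes aside, with the next smallest p and at least 5 CPM in the higher group did not pass adjustment, with edgeR adjusted p from 0.0527 to 0.106. All 22 passed without Ripk3-/- Ptpn6deltaPMN replicate 2 (adjusted p 0.0146 to 0.0358) and by DESeq2, and 14 passed without the filter on low counts. With DESeq2's size factors 2 passed, Atrn and Cnnm2 (both 0.045). Without Mlkl-/- Ptpn6deltaPMN replicate 1 there were 3, and in the fit of only the libraries compared there was 1. None passed with the block, with the B cell marker level, or without Ripk3-/- Ptpn6deltaPMN replicate 1, replicate 3 or Mlkl-/- Ptpn6deltaPMN replicate 2. Of these, 18 were lower without Ripk3 and 4 higher. Atrn, which encodes the transmembrane protein attractin, was the nearest to the threshold, at 122, 199.5 and 152 CPM against 314 and 376 CPM (log2 change -1.13, SE 0.19, adjusted p = 0.0527). Cnnm2, a magnesium transport protein, was at 4.16, 7.46 and 7.32 CPM against 23.7 and 32.1 CPM (log2 change -2.14, SE 0.38, adjusted p = 0.0623). For both genes all 3 libraries without Ripk3 lay below both without Mlkl. Stim1, the calcium sensor of the endoplasmic reticulum, was at 82.2, 128 and 109 CPM against 184 and 160 CPM, and Jup, the junction protein plakoglobin, was at 18.1, 23.8 and 23.6 CPM against 48.8 and 41.4 CPM. Among the 4 higher genes, Lpar6, a receptor for lysophosphatidic acid, was at 28.6, 48.1 and 45.3 CPM against 10.4 and 10.6 CPM (log2 change 1.95, adjusted p = 0.0853). The other 3 were Fam105a, Cep89 and Cfl2, with log2 changes of 1.52, 1.80 and 0.82.

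Of the 22 genes, Eif2ak2 and Cmpk2 belong to the interferon response list described next, and Helz2, Trim25 and Parp12 lie outside it. Helz2, a helicase, was at 158, 185 and 152 CPM without Ripk3 and at 263 and 431 CPM without Mlkl (log2 change -1.07, SE 0.20, adjusted p = 0.0787). Trim25, a ubiquitin ligase of the RIG-I pathway, was at 175.5, 253.5 and 233.5 CPM against 358.5 and 425 CPM. Parp12, an ADP-ribosyltransferase, was at 26.9, 28.5 and 27.4 CPM against 47.3 and 72.6 CPM. All 3 showed no overlap, and the 6 Ptpn6-intact libraries of both knockouts lay at 147 to 185 CPM for Helz2, 197 to 247 CPM for Trim25 and 25.4 to 35.2 CPM for Parp12.

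The interferon response list, genes that interferons induce, held 38 tested members. None was called, and 37 of 38 had a log2 change below 0, where 45.1% of all genes tested did. At an unadjusted p under 0.05, 32 of 38 members were lower and none higher, beside 10.9% of all genes. For 33 members the Ripk3-/- Ptpn6deltaPMN libraries all lay below the Mlkl-/- Ptpn6deltaPMN libraries, beside 16.1% of all genes. The median log2 change was -1.11, beside 0.07 over all genes tested. With Ptpn6 intact the same list had a median of 0.02, with 20 members above 0 and 18 below, where 51% and 49% of all genes were. No member had an unadjusted p under 0.05 there (2.75% of all genes were higher and 2.28% lower), and for none did the groups separate (9.19% of all genes higher and 6.41% lower).

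Members are given by role, and none passed. Irf9, Ifit1, Ifit3, Ifit3b, Isg15, Oas1a and Mx2 were chosen after their values were seen. Irf7, which amplifies type I interferon production, was at 151, 112 and 96.5 CPM without Ripk3 and at 230 and 302 CPM without Mlkl (log2 change -1.15, SE 0.25, adjusted p = 0.106). Stat2 was at 81.5, 86.3 and 71.6 CPM against 105 and 163 CPM, with no overlap. Irf9 had a mean of 148 ± 15.8 CPM (SD, n = 3) against 246 ± 10.9 CPM (SD, n = 2). Among the sensors and effectors, Eif2ak2, the double-stranded RNA kinase PKR, was at 39.0, 40.1 and 38.2 CPM against 63.2 and 109.9 CPM (log2 change -1.15, SE 0.22, adjusted p = 0.0787). Cmpk2, a mitochondrial nucleotide kinase, was at 135, 123 and 121 CPM against 250.3 and 302 CPM (log2 change -1.12, SE 0.23, adjusted p = 0.0853). Both genes were nearly even among the 3 libraries without Ripk3, while the 2 libraries without Mlkl differed from each other. Zbp1, a sensor of Z-form nucleic acid that can activate Ripk3, was at 43.8, 42.8 and 31.8 CPM against 80.1 and 129 CPM (log2 change -1.41, SE 0.35, adjusted p = 0.110). The largest difference of the list was that of Ifit1, which binds viral RNA, at 36.1 ± 10.2 CPM (SD, n = 3) against 125 ± 58.1 CPM (SD, n = 2), a log2 change of -1.80. Ifit3 and Ifit3b, near-identical copies between which reads can be split, had log2 changes of -1.57 and -1.50 and are uncertain one by one. The single member above 0 was Mx2, at 1.38 ± 0.812 CPM against 1.12 ± 0.594 CPM, levels that did not differ beyond the spread.

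The promoters of 3 members, chosen after their values and matches were seen to show what much of the list shares in sequence, are printed for the 250 bases before the start, 5′ to 3′ on the gene's strand, from RefSeq on GRCm38.p6. Capitals mark the core of the interferon-stimulated response element, GAAA and a second GAAA with 2 bases of any kind between them, or its reverse complement, TTTC and TTTC with the same spacing, searched on both strands with overlaps allowed. Ifit1 lies on the plus strand (chr19:34640639-34640888), Isg15 on the minus strand (chr4:156200819-156201068) and Oas1a on the minus strand (chr5:120907526-120907775).
Ifit1: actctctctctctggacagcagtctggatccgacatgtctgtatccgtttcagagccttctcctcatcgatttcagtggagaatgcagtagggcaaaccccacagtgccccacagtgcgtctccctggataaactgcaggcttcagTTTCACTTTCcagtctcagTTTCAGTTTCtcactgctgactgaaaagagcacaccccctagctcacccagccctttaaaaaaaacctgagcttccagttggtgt
Isg15: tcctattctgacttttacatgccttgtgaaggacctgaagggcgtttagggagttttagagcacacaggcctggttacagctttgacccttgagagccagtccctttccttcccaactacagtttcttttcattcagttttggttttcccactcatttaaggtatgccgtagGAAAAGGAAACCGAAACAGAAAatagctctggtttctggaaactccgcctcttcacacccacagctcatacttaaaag
Oas1a: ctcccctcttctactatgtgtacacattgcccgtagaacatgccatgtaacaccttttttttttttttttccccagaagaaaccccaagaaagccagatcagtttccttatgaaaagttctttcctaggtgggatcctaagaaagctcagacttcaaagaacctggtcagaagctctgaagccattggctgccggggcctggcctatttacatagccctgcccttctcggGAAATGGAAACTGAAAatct

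In windows of 300 bases, from 250 before to 50 after the start, the motif was found in 1131 of 32851 RefSeq promoter windows (3.44%). Windows on chromosome 18 were left out. For the interferon response list 28 of 38 members matched a promoter, and 18 of the 28 held the motif, or 19 of 34 windows (55.9%). The 24 leading genes were Sncaip, Ankrd46 and the 22 above that did not pass. Ripk3, under 5 CPM, was not among them. Of the 24, 17 matched a window, and 1 of their 19 windows (5.26%) held the motif. Isg15, a ubiquitin-like protein that held 3 overlapping matches, was at 19.1 ± 5.19 CPM (SD, n = 3) without Ripk3 and at 44.3 ± 8.06 CPM (SD, n = 2) without Mlkl. Oas1a, which makes the activator of RNase L and held 2, was at 73.1 ± 16.7 CPM against 186 ± 35.6 CPM. Cmpk2 and Irf7 had the motif in neither strand of this window, which says only that these letters are not there. A match is a description of the sequence, not a bound site.

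Of the 4 groups, the Mlkl-/- Ptpn6deltaPMN libraries had the highest interferon response levels. The mean log2 CPM over the list was 5.60, 5.24 and 5.27 in Ripk3-/- Ptpn6deltaPMN replicates 1 to 3 and 6.13 and 6.64 in Mlkl-/- Ptpn6deltaPMN replicates 1 and 2. It was 5.11 to 5.60 in Ripk3-/- and 5.17 to 5.54 in Mlkl-/- libraries with Ptpn6 intact. A high value was not particular to Mlkl-/- Ptpn6deltaPMN, since Ripk3-/- Mlkl-/- replicate 2 was at 6.30 and Ripk3-/- Mlkl-/- Ptpn6deltaPMN replicate 3 at 6.00, while other libraries of these groups were at 5.12 to 5.62. The list median was -1.15 without Ripk3-/- Ptpn6deltaPMN replicate 1, with no member called, and -1.10 without replicate 2, with 15 of 38 members called lower where 6.03% of all genes were. Without Mlkl-/- Ptpn6deltaPMN replicate 1 it was -1.27, with 1 member called, and without replicate 2 it was -0.76, with none. With the B cell marker level in the fit it was -0.83, again with no member called, and DESeq2 called 29 of 38 members lower, where it called 2.74% of all genes lower.

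**Figure D3:**
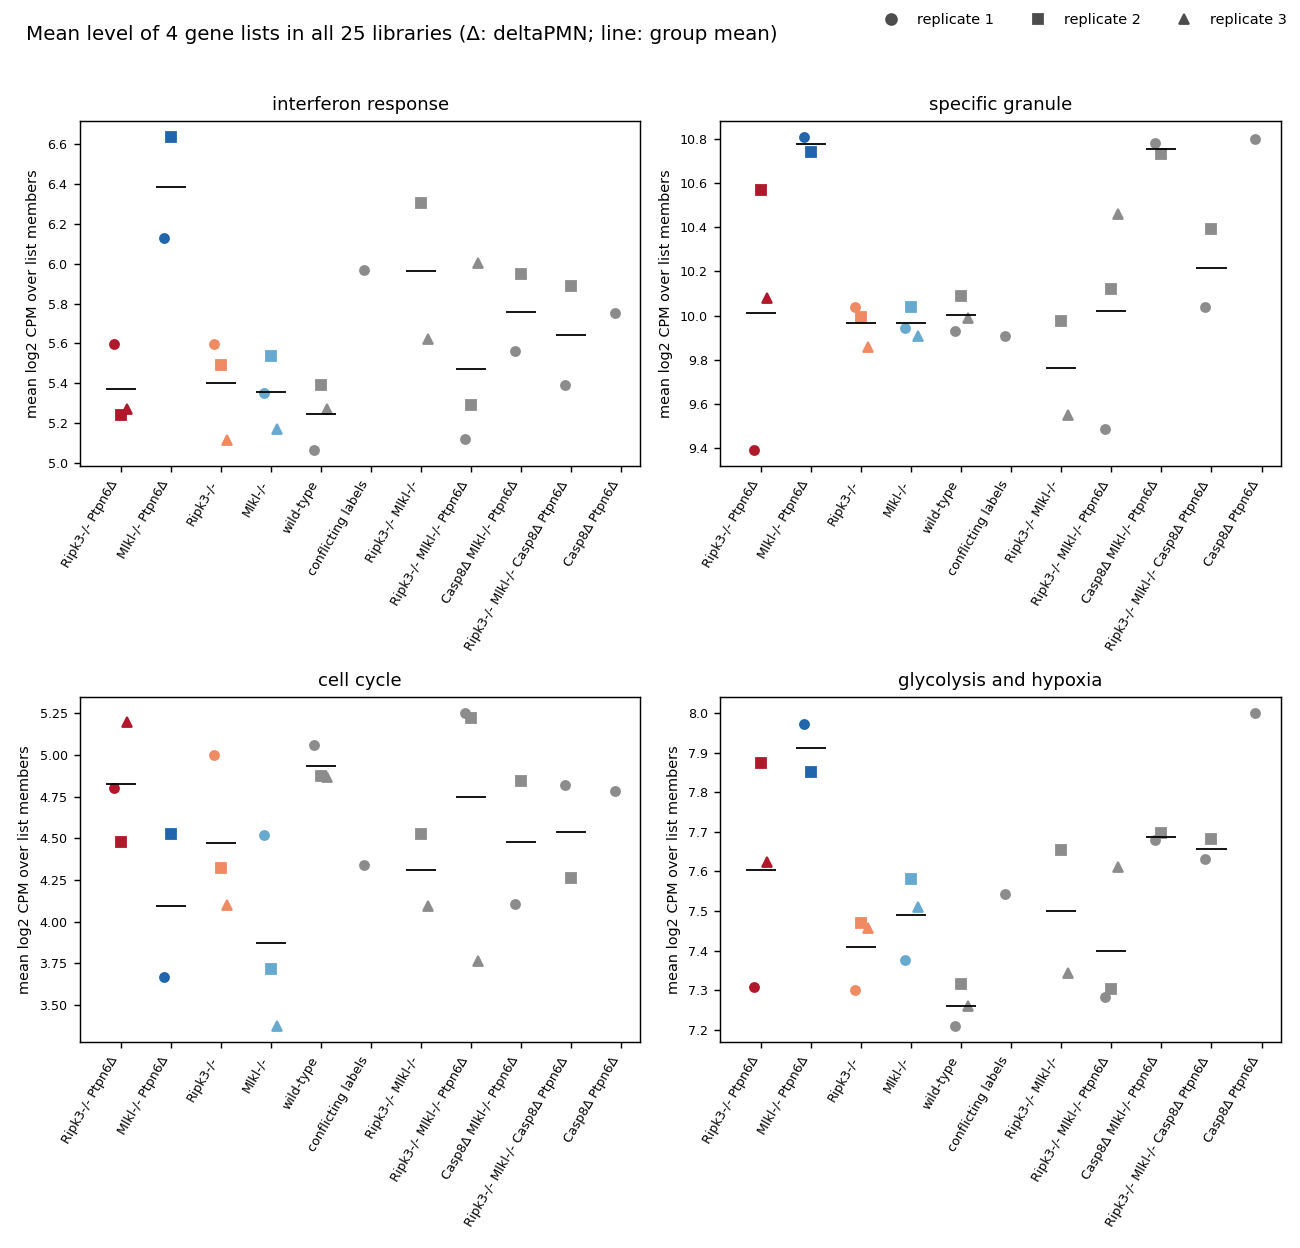
Mean log2 CPM over the tested members of 4 gene lists (vertical axes) in all 25 libraries, 1 point per library, grouped on the horizontal axes, with a line at the mean of groups with more than 1 library. Interferon response is highest in Mlkl-/- Ptpn6deltaPMN replicate 2 (6.64), and specific granule genes are low in Ripk3-/- Ptpn6deltaPMN replicate 1 (9.39) beside replicates 2 and 3 (10.57 and 10.08).

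The specific granule list, made at the myelocyte and metamyelocyte stages, had 17 tested members. All 17 had a log2 change below 0, beside 45.1% of all genes, and 10 were lower at an unadjusted p under 0.05, beside 10.9%. None was called, and the median was -0.69. Olfm4, which marks a subset of neutrophils, was even at 165, 177 and 170.3 CPM without Ripk3, against 330 and 482 CPM (log2 change -1.25, SE 0.30, adjusted p = 0.110). Mmp8, neutrophil collagenase, was at 2960, 6210 and 3950 CPM against 7624 and 7529 CPM, and Tcn2, a vitamin B12 carrier, at 193, 334 and 252 CPM against 439 and 397 CPM. Neither overlapped between the groups, but for both replicate 2 was nearer to the Mlkl-/- Ptpn6deltaPMN libraries and replicate 1 was lowest. The median was -0.40 without Ripk3-/- Ptpn6deltaPMN replicate 1 and -0.95 without replicate 2, where 10 of 17 members were called lower beside 6.03% of all genes. With the B cell marker level in the fit it was -0.33, and with Ptpn6 intact it was -0.05. The azurophil list, made earlier at the promyelocyte stage, had 7 of 11 members above 0, beside 54.9% of all genes, and a median of 0.68, with none at an unadjusted p under 0.05. Its members Elane, neutrophil elastase (20.5, 19.95 and 43.35 CPM against 7.93 and 11.2 CPM), and Mpo, myeloperoxidase (123, 140 and 228 CPM against 56.0 and 71.0 CPM), did not overlap between the groups and did not pass (adjusted p of Mpo 0.315). With the B cell marker level in the fit the azurophil median was 0.20.

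Lists of late maturation, sensing and oxidant production had medians between that of the specific granule list and 0, and are to be read beside the 45.1% of all genes below 0. Of 20 gelatinase granule and maturation genes 16 were below 0 (median -0.49), and 7 were lower at an unadjusted p under 0.05, beside 10.9% of all genes. With Ptpn6 intact all 20 were below 0 (median -0.25). Il1r2, the decoy receptor for interleukin-1, was at 188, 301 and 159 CPM against 363 and 407 CPM. Itgam, the CD11b integrin subunit, was at 1992, 2963 and 2399 CPM against 3703 and 3813 CPM. Of 13 chemoattractant receptors 11 were below 0 (median -0.51), and 9 were with Ptpn6 intact (median -0.22). C5ar1, the receptor for complement C5a, was at 615, 956 and 651 CPM against 1260 and 1013 CPM. Of 8 subunits of the phagocyte NADPH oxidase 7 were below 0 (median -0.41), and 6 were with Ptpn6 intact (median -0.14). Cybb, the catalytic subunit, was at 744, 1447 and 1348 CPM against 1801 and 1964 CPM. The log2 changes of these named genes lay between -0.83 and -0.62 with adjusted p from 0.135 to 0.160, and none passed. Without Ripk3-/- Ptpn6deltaPMN replicate 2 the medians of the 3 lists were -0.73, -0.71 and -0.61, with 9, 5 and 4 members called lower, beside 6.03% of all genes. Without replicate 1 they were -0.33, -0.38 and -0.26, and with the B cell marker level in the fit -0.13, -0.17 and -0.16, with none called. The neutrophil marker sums above moved the same way, but all neutrophil markers except Ly6g are members of the specific or gelatinase granule list. The sums are therefore not a separate measure, and the part of neutrophil content in these differences was not tested.

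Cd14, the lipopolysaccharide co-receptor of the Toll-like receptor list, had the lowest log2 change of its list, followed by Tlr7 (-0.74). It was at 21.1, 65.3 and 28.0 CPM without Ripk3 and at 257 and 229 CPM without Mlkl (log2 change -2.68, SE 0.66, edgeR adjusted p = 0.110). With Ptpn6 intact it was at 12.01, 17.85 and 20.45 CPM in Ripk3-/- libraries and at 17.95, 142 and 122 CPM in Mlkl-/- libraries, where Mlkl-/- replicate 1 stood apart from the other 2. The other 20 libraries ranged from 8.21 to 305 CPM. Of the 18 Toll-like receptor pathway members 15 were below 0 (median -0.32), beside 45.1% of all genes. With Ptpn6 intact 13 were (median -0.17), beside 49% of all genes. Tlr8, a receptor for RNA, was at 97.7, 119 and 98.4 CPM against 166 and 150 CPM, and Irak4, the kinase downstream of Myd88, at 105, 138 and 102 CPM against 154 and 156 CPM. Among receptors that recruit Ptpn6 and the kinases near it, 17 of 19 were below 0 (median -0.25), beside 45.1% of all genes. With Ptpn6 intact 16 of 19 were (median -0.20), beside 49% of all genes. Pirb, an inhibitory receptor with immunoreceptor tyrosine motifs, was at 510, 711 and 504 CPM against 1321 and 2129 CPM (log2 change -1.58, SE 0.39, adjusted p = 0.110). It belongs to a family of similar genes between which reads can be split, so its value is uncertain. Lyn, a Src family kinase, was at 549, 768 and 574 CPM against 849 and 833 CPM. Without Ripk3-/- Ptpn6deltaPMN replicate 2 the medians of these 2 lists were -0.55 and -0.50, with 5 and 4 members called lower beside 6.03% of all genes, and with the B cell marker level in the fit they were -0.10 and -0.05, with none called.

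**Figure D4:**
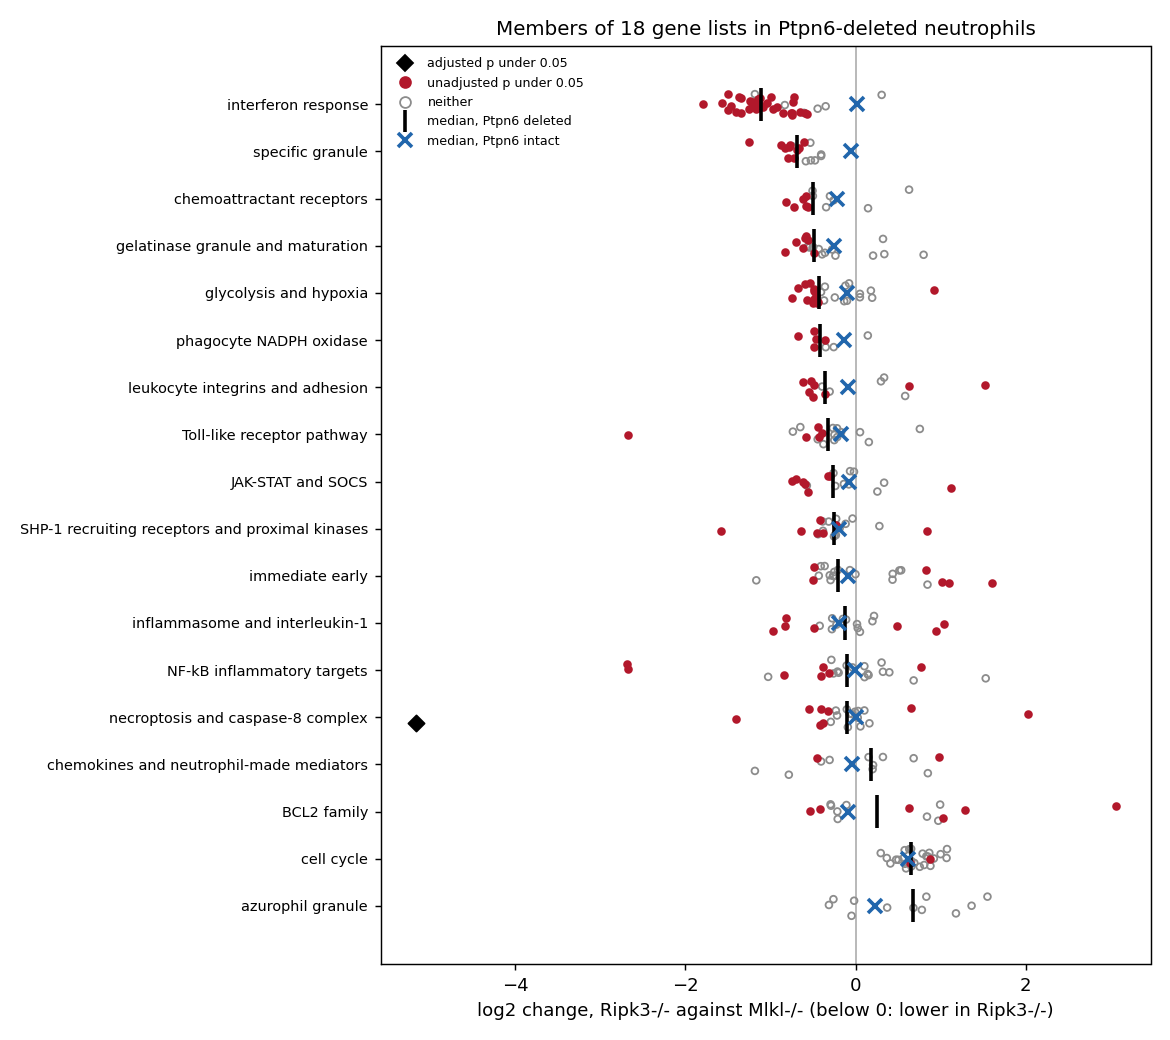
Log2 change of each tested member of 18 gene lists (horizontal axis, Ripk3-/- Ptpn6deltaPMN against Mlkl-/- Ptpn6deltaPMN) with the lists on the vertical axis, filled where the unadjusted p was under 0.05 and as a diamond where the adjusted p was, with a bar at the list median and a cross at the median with Ptpn6 intact. Ripk3 is the only diamond, and the interferon response list has the lowest median (-1.11) with its cross at 0.02.

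The cell cycle list was on the other side. All 28 members had a log2 change above 0, where 54.9% of all genes did, with a median of 0.65. At an unadjusted p under 0.05, 2 of 28 were higher, beside 11.8% of all genes, and 10 of 28 were higher with no overlap between the groups, beside 21.7%. Birc5, which encodes survivin, was at 25.1, 21.9 and 32.7 CPM against 13.3 and 20.7 CPM, and Cdc20, an activator of the anaphase-promoting complex, at 18.9, 22.1 and 26.5 CPM against 9.28 and 15.3 CPM (adjusted p = 0.182 and 0.219). The median was 0.62 with Ptpn6 intact, with 27 of 28 members above 0, so the medians were alike. There, 1 of 28 was higher at an unadjusted p under 0.05, beside 2.75% of all genes. The intact groups separated for 0 of 28, beside 9.19% of all genes that were higher. The mean over the list overlapped between the groups, and the median was 0.30 without Mlkl-/- Ptpn6deltaPMN replicate 1 and 1.24 without replicate 2. B cell markers moved with it, and with their level in the fit the median was 0.01.

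Glycolysis and hypoxia genes lay mostly lower without Ripk3, with 21 of 26 below 0, beside 45.1% of all genes, and a median of -0.43. At an unadjusted p under 0.05, 13 were lower and 1 higher, beside 10.9% and 11.8% of all genes. With Ptpn6 intact 20 of 26 were below 0 (median -0.10), where 49% of all genes were. Hk2, hexokinase 2, was at 68.2, 81.9 and 81.6 CPM against 108 and 122 CPM, with no overlap (log2 change -0.57, SE 0.18, adjusted p = 0.147). Pdk1, which limits entry of pyruvate into the mitochondrion, went the other way at 12.2, 8.93 and 12.9 CPM against 6.26 and 5.70 CPM. The median was -0.25 without Ripk3-/- Ptpn6deltaPMN replicate 1, -0.63 without replicate 2 (13 members called lower and 1 higher, beside 6.03% and 2.22% of all genes), -0.29 without Mlkl-/- Ptpn6deltaPMN replicate 1 and -0.11 with the B cell marker level in the fit.

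Death and inflammatory gene lists differed in how their members divided. Of 22 genes of the necroptosis and caspase-8 complex list, 15 were below 0 and 7 above, the median was -0.10, and Ripk3 was the only call. The BCL2 family had 7 above and 7 below 0, with a median of 0.26 that was -0.07 without Ripk3-/- Ptpn6deltaPMN replicate 1 and -0.05 without Mlkl-/- Ptpn6deltaPMN replicate 2. Bax, a pore-forming member, was at 15.8, 11.2 and 13.5 CPM against 9.497 and 8.065 CPM (adjusted p = 0.154), while the groups overlapped for Pmaip1. Of 23 inflammatory targets of NF-kB 10 were above and 13 below 0, with Cd14 and Nos2 at the low end. Clec4e, the glycolipid receptor Mincle, was at 258, 501.5 and 325.5 CPM against 667 and 633 CPM. Of 18 inflammasome and interleukin-1 genes 8 were above and 10 below 0, with Casp4, the caspase that senses cytosolic lipopolysaccharide (caspase-11), at 37.1, 74.1 and 44.1 CPM against 83.1 and 98.6 CPM. Of 17 JAK-STAT genes 14 were below 0, beside 45.1% of all genes, and 11 were with Ptpn6 intact, beside 49%. Socs2, a feedback inhibitor of cytokine receptors, was at 3.43, 3.41 and 2.95 CPM against 1.40 and 1.59 CPM. Immediate early genes (9 above, 14 below 0), chemokines (7 above, 5 below) and leukocyte integrins (5 above, 8 below) were mixed. Nr4a1, an orphan nuclear receptor induced by stimulation, was at 37.1, 7.22 and 9.28 CPM against 6.91 and 4.93 CPM, and Itgax, the CD11c integrin subunit, at 102, 20.8 and 19.9 CPM against 21.58 and 11.56 CPM, and in both replicate 1 stood apart. No member of these lists other than Ripk3 passed. Without Ripk3-/- Ptpn6deltaPMN replicate 2, where 6.03% of all genes were called lower and 2.22% higher, the counts were 6 lower and 1 higher for necroptosis, 5 and 1 for NF-kB targets, 5 and 3 for integrins, 4 and 1 for JAK-STAT, 3 and 2 for the inflammasome list, 1 and 1 for immediate early genes, 1 and 0 for chemokines and 0 and 2 for the BCL2 family.

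The same pair of knockouts with Ptpn6 intact gave 1 call of 16206 genes (0.00617%), Ripk3, with 1, 0 and 0 counts in Ripk3-/- and 114, 54 and 59 counts in Mlkl-/- libraries. At an unadjusted p under 0.05 there were 814 genes (5.02%), against 3673 (22.7%) in Ptpn6-deleted neutrophils. The 1910 genes higher without Ripk3 in Ptpn6-deleted neutrophils at that threshold had the same sign in 85.6% of cases in the intact libraries, with a median log2 change of 0.33 where it was 0.95. The 1763 lower genes had the same sign in 80.6% of cases, with medians of -0.12 and -0.47. Over all genes tested the share was 69.7%. Genes are not independent replicates, and these shares describe the 11 libraries only.

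Whether the knockouts differed from each other more in Ptpn6-deleted than in intact neutrophils was tested directly, as the difference of the 2 differences. No gene passed by the edgeR quasi-likelihood test, 947 (5.84%) had an unadjusted p under 0.05, and DESeq2 called 4, Sncaip and Wdr7 among them. The smallest p was that of Sncaip (difference -4.91, edgeR adjusted p = 0.121), then Wdr7, a protein linked to acidification of vesicles (-0.85, adjusted p = 0.261), Jup (-1.23, adjusted p = 0.833) and Cfl2, an actin-severing protein (0.94, adjusted p = 0.833). All 38 interferon response members had a difference below 0 (median -0.98), 31 of them at an unadjusted p under 0.05, beside 2.96% of all genes tested that were lower and 2.89% that were higher. Below 0 lay 46% of all genes. The smallest adjusted p among them was 0.833. All 17 specific granule members also lay below 0 (median -0.68), 5 of them at an unadjusted p under 0.05. No difference between Ripk3 and Mlkl loss was therefore shown to be particular to Ptpn6-deleted neutrophils by the test across all genes.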

How the data were processed

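A single table was deposited by the authors, holding estimated counts for 35741 gene symbols in 25 libraries and no scaling for depth or length. The submitters' processing notes name Salmon 0.14.1, GRCm38.p6 and DESeq2. How transcript values became gene values is not given in the sources used here. The counts were rounded to whole numbers, and every library column was matched (0 unmatched).

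Groups came from the genotype in the library titles. One fit with edgeR 4.0.16 (R 4.3.3) covered the 23 libraries of 9 groups with 2 or 3 libraries: TMM scaling, filterByExpr with minimum count 10 and minimum total 15, a quasi-likelihood F test with 14 residual degrees of freedom, and 16206 genes tested. A call is an adjusted p (Benjamini-Hochberg) under 0.05. The members and gene lists were chosen with earlier results of these data known. Named were the targeted genes, called genes filled up to 24 by smallest p at 5 CPM or more, up to 3 members per list by p, the 4 smallest p of the difference of differences, and 2 genes tied to Ptpn6 deletion; predicted genes were not named, and 1 gene is not reported here. Same-numbered libraries did not deviate together (correlations 0.04 and -0.10, and 0.21, 0.10 and 0.05 with Ptpn6 intact, where not every pair was over 0.1), so the numbers were not taken to pair libraries. The fit was tested on simulated data. RefSeq coordinates matched 92.6% of tested symbols. Alternatives were DESeq2's size factors, no filter, DESeq2 1.42.0, only the compared libraries, a replicate block, each library left out and, chosen after seeing the data, a B cell marker covariate. Figures were drawn with matplotlib 3.10.9.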

Additional observations from a re-analysis of the deposited data

Results flagged for a closer look

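For Sncaip and Wdr7 the groups separated in opposite directions in the 2 comparisons. Only named genes were searched for this. Both genes have the smallest p of the difference of differences and were named for it, a choice that favours such reversals. Sncaip was lower in all Ripk3-/- Ptpn6deltaPMN libraries than in both Mlkl-/- Ptpn6deltaPMN libraries and higher in all Ripk3-/- than in all Mlkl-/- libraries with Ptpn6 intact, a difference between the comparisons of -4.91 on the log2 scale. Wdr7 was at 19.8, 20.8 and 21.4 CPM against 25.6 and 29.8 CPM with Ptpn6 deleted and at 21.5, 20.4 and 21.1 CPM against 17.4, 14.3 and 15.2 CPM with Ptpn6 intact, a difference of -0.846. Both differences were tested and missed the threshold (edgeR quasi-likelihood adjusted p = 0.121 and 0.261). Of 17 other settings, Sncaip passed in 2, without the filter on low counts and by DESeq2 (0.000278), and Wdr7 in 1, by DESeq2 (0.000278). Over them the adjusted p reached 0.807 for Sncaip and 0.950 for Wdr7. Of all 16206 genes, 112 separated both pairs of groups in opposite directions and 1067 in the same direction.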

How the results depend on the processing

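The count of 3 calls moved with most settings. It was 5 with DESeq2's size factors, 25 without the filter on low counts, 10 when only the libraries compared were fitted and 593 by DESeq2 (149 higher, 444 lower), which gave no adjusted p to Ripk3 or Sncaip. It was 2 with the replicate block and 2 with the B cell marker covariate, where genes at an unadjusted p under 0.05 went from 3673 to 1069. Leaving out 1 library gave 1 to 1334 calls: 1 without Ripk3-/- Ptpn6deltaPMN replicate 1, 1334 without replicate 2 (359 higher, 975 lower), 2 without replicate 3, and 5 and 1 without Mlkl-/- Ptpn6deltaPMN replicates 1 and 2. Those last 2 fits left a single Mlkl-/- Ptpn6deltaPMN library, whose spread was taken from the remaining groups. Why the counts differ was not tested. With Ptpn6 intact the count of 1 became 2 by DESeq2 and was 1 under each other setting run, including leaving out each library in turn. For the difference of differences the count of 0 became 1 without the filter and 4 by DESeq2 and was 0 under the others, including each library left out. Of 997 values of single genes 850 kept direction and side of the threshold, 133 passed it newly, 8 lost it and 6 turned sign. Of 198 list medians 188 kept their sign and 10 turned, in the BCL2, NF-kB, chemokine, immediate early and inflammasome lists. Casp8 was -0.0138 with DESeq2's size factors, -0.0145 by DESeq2 and -0.123 with the B cell covariate. With 1 library left out Casp8 ranged from -0.25 (without Mlkl-/- Ptpn6deltaPMN replicate 1) to 0.376, Bbc3 from -0.958 to 0.0646 (without the same library) and Nos2 from -4.85 to 0.0587 (without Mlkl-/- Ptpn6deltaPMN replicate 2). None of these 3 had passed in the main fit. Nos2 passed without Ripk3-/- Ptpn6deltaPMN replicate 2 (log2 change -4.85, edgeR adjusted p = 0.0274). What this depth limits was not tested.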
